A study of Caenorhabditis elegans with 6 samples.

Results

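tns-1 (M01E11.7, WBGene00006508) is the tensin gene of Caenorhabditis elegans, and its transcripts were examined in RNA of whole larvae at the L4 stage. It is 1 of the 22010 genes to which the listed transcripts were summed. All rows named M01E11.7 followed by an isoform letter were taken, which gave 9 transcripts named a, b.1, b.2, c, d, e, f, g and h. Animals of 2 genotypes were compared. The pals-25(icb98) strain, with 3 libraries, has a premature stop in the last part of the pals-25 reading frame and is 1 isolate from an EMS mutagenesis screen in which chil-27 reporter activity was sought in uninfected worms. WT, also with 3 libraries, is N2 carrying icbIs4. Both strains hold this transgene, which expresses GFP from chil-27p and mCherry from col-12p, and all animals were grown at 20°C on E. coli OP50 with no pathogen. The comparison asks how the activated pals-25 allele alters gene expression in uninfected animals, and tns-1 is on the study's list of genes of the oomycete recognition response, the program induced by oomycetes that infect the epidermis. The gene was chosen for its estimated counts per transcript, its isoform shares and its total in these same libraries, so all of these are given as a description with no test.

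Tensins are cytoplasmic proteins of cell attachments to the extracellular matrix. There, integrins span the membrane, bind matrix outside the cell and are coupled to actin inside it by adaptors such as talin, vinculin and tensin, and vertebrate tensins end in an SH2 and a PTB domain, the PTB domain being the one that binds beta integrin tails. In C. elegans the best studied integrin attachments are the dense bodies and M lines of body wall muscle, which anchor the contractile filaments to the basement membrane under the epidermis, and tns-1 is annotated to both structures, to cell junctions and to the muscular and reproductive systems.

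Libraries held 43614668 to 44425046 estimated counts in pals-25(icb98) and 40709626 to 47297002 in WT. The mutant label was borne out by chil-27, a chitinase-like gene whose promoter drives the reporter of the screen, at 36.2, 40.2 and 33.5 CPM (TMM-scaled counts at 1 common library size) in pals-25(icb98), against 0.127, 0.0484 and 0.221 CPM in WT. Between 230 and 280 genes differed over 2-fold in any pair of pals-25(icb98) libraries, and 280 did between WT replicates 1 and 3, whereas WT replicate 2 differed from these at 2960 and 2658 genes. WT replicate 2 was kept, and values that turn on it are named below.

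The isoforms of tns-1 are staggered along the gene and mostly share their last exons. The gene lies on the minus strand of chromosome I from 5583407 to 5607529 in the WBcel235 assembly, a span of 24123 bases. Isoform a starts farthest upstream and has 26 exons and 1354 codons, and e starts 4048 bases downstream of it with 1317 codons. Isoforms c and d start close together, 10169 and 10155 bases downstream of a. They differ at the other end: c continues to the common 3′ end and encodes 949 codons, whereas d stops in an exon of its own and encodes 664. The remaining isoforms start inside the gene, f at 13773 bases with 570 codons, g at 15842 with 317, b.1 at 17936 with 417 and h at 21281 with 259. The 777 coding bases that end the protein are common to a, b.1, c, e, f, g and h, and 0 of them are in d. In the annotated models, only a, b.1 and d hold exonic bases found in no other isoform letter, 114, 668 and 297 of them. Of the coding sequence of isoform b.1, 30.3% is absent from a.

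**Figure D1:**
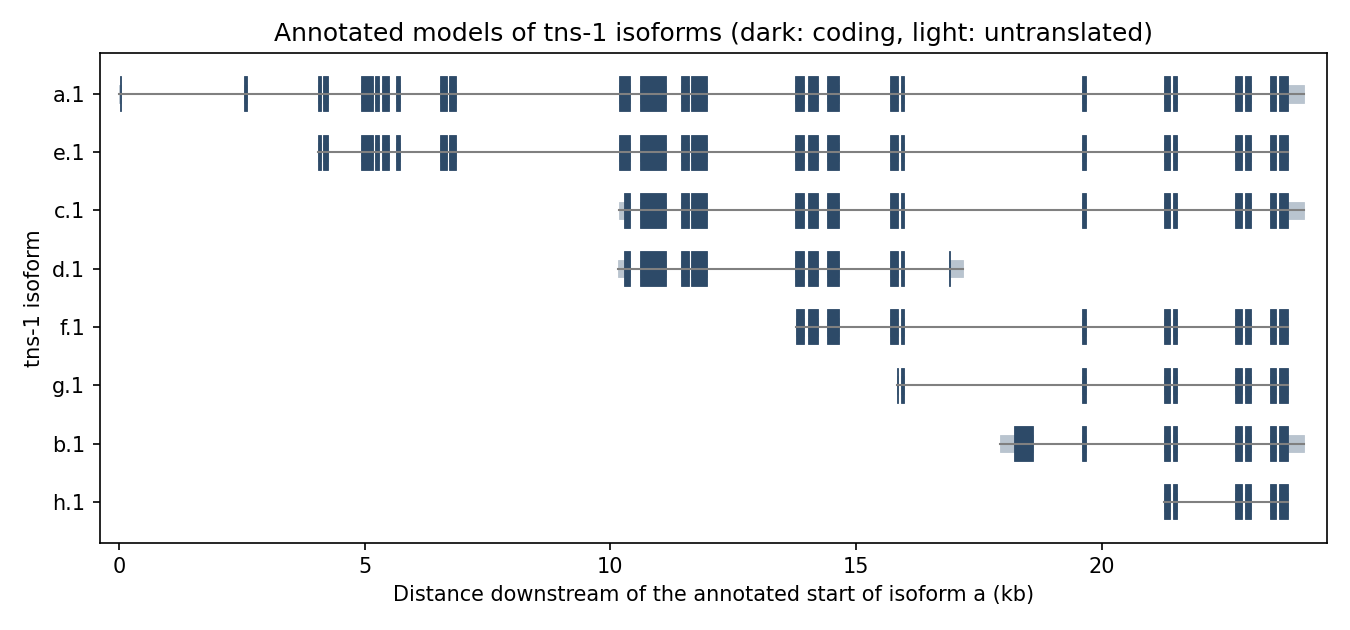
Annotated models of 8 tns-1 isoforms, plotted as distance downstream of the start of isoform a in kb, with coding exons dark, untranslated parts light and introns as lines. Isoform d ends early, and all other isoforms shown reach the same last coding exon.

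These models come from the Ensembl annotation of WBcel235, and the lengths listed with the counts equal theirs for 3 transcripts, a (4401 bases), b.1 (1867) and c (3284). Isoforms d, e, f, g and h were listed at 2093, 4278, 2049, 1699 and 1200 bases, against 2382, 3954, 1713, 954 and 780 in the annotation. Transcript b.2 has no model there. It was listed at 1789 bases, 78 shorter than b.1, with which it shares its isoform letter and therefore, by the naming rule of WormBase, its coding sequence. Where reads fit several of these transcripts, the division among them is an estimate. The annotation gives c, e, f, g and h 0 bases of their own, but d, e, f, g and h were counted at other lengths than these models. Which isoforms depend most on the division therefore cannot be told from the models. The same holds for the split between b.1 and b.2, since the own bases of b.1 were counted against other isoform letters only.

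The gene total does not depend on how reads were divided among the isoforms. It was 3925, 3935 and 3900 counts in pals-25(icb98), against 5629, 4973 and 4767 counts in WT. These sums were whole (within 0.001 counts) in all 6 libraries although the single transcripts were not, as were those of 87.6% of the 5008 genes with several transcripts and at least 100 counts in every library. Scaled to library size, tns-1 stood at 91.5, 88.2 and 88.2 CPM in pals-25(icb98), against 119, 120.5 and 117 CPM in WT. The groups did not overlap, and WT replicate 2 lay beside the other WT libraries. The means were 89.3 ± 1.90 and 119 ± 1.61 CPM (SD, n = 3 each), so the mutant was 24.8% lower, a log2 ratio of -0.41. The oomycete recognition response, whose list holds tns-1, is a program of genes induced by oomycete infection or extract, in other experiments than these. Whether that entry rests on a transcript or on the gene total was not examined. Over all 16166 genes tested, the groups did not overlap in 49.3% (24.8% lower in the mutant), and 14.3% of genes had a lower fitted log2 difference than tns-1.

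By the estimated counts, nearly all of this difference lay in the transcripts that start in the upstream part of the gene. Isoform c, the most abundant, was at 40.7, 31.9 and 31.3 CPM in pals-25(icb98), against 50.4, 47.1 and 49.4 CPM in WT. It was lower in every mutant library, least so in replicate 1, and the log2 ratio of its means was -0.50. Its mean difference of -14.3 CPM made up 48.6% of that of the gene.

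Isoform a, the longest protein, was at 15.65, 13.6 and 14.4 CPM in pals-25(icb98), against 19.8, 27 and 20.8 CPM in WT. Its groups did not overlap either, with a log2 ratio of -0.63, and it contributed 26.98% of the difference. WT replicate 2 held the highest value, and without it the ratio was -0.48. Isoform d, which lacks the common protein end, was at 5.55, 6.66 and 8.13 CPM in pals-25(icb98), against 11.4, 14.6 and 9.84 CPM in WT. This was the lowest ratio among the transcripts, -0.82, and 17.5% of the difference. Here too WT replicate 2 was highest, and the ratio without it was -0.65. Together a, c and d summed to 56.0 ± 5.25 CPM in pals-25(icb98) and 83.4 ± 4.64 CPM in WT (SD, n = 3 each), 93.1% of the difference in the gene total. In WT these isoforms held 70.2 ± 2.98% of the counts of the gene (SD, n = 3). This grouping was made after the values were seen, and its sums rest on the estimated division of reads.

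**Figure D2:**
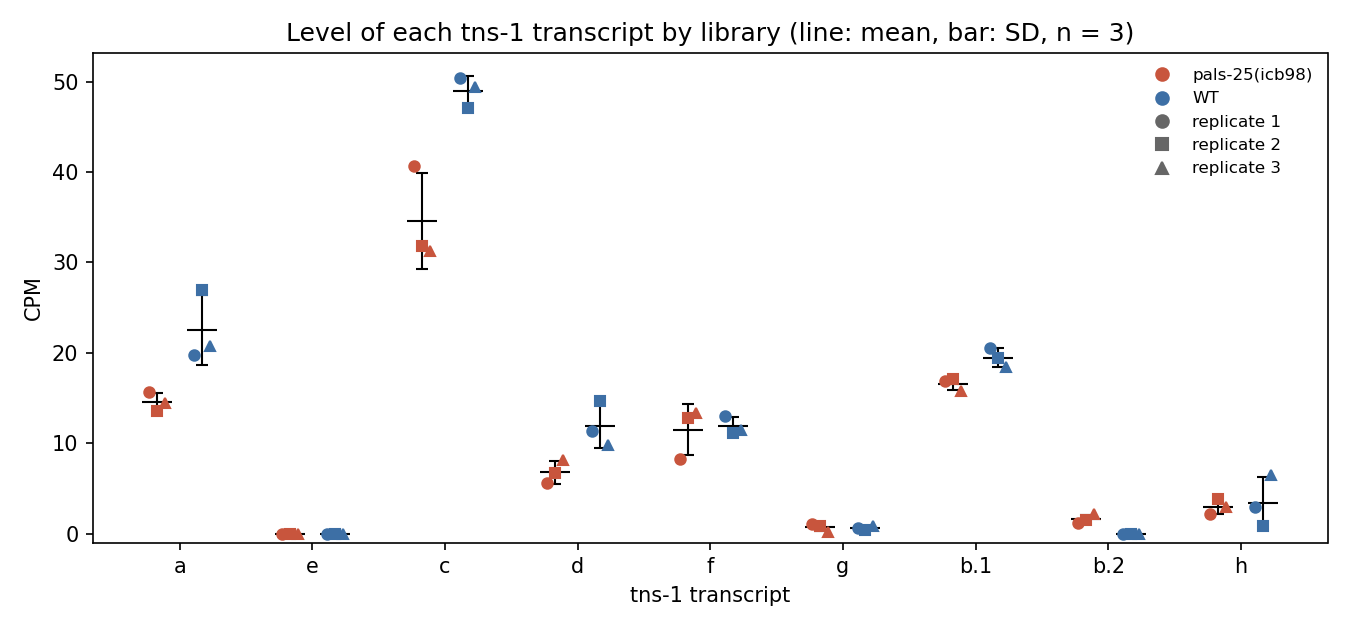
CPM of each tns-1 transcript in each library, with transcripts ordered by their starts along the gene, pals-25(icb98) left of WT, replicates as marker shapes, and the mean with its SD (n = 3) as lines. Isoforms a, c, d and b.1 were lower in all pals-25(icb98) libraries, b.2 had estimates above 0 only there, and f, g and h overlapped.

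The transcripts that start farther downstream differed less. Isoform b.1 was at 16.9, 17.1 and 15.8 CPM in pals-25(icb98), against 20.5, 19.4 and 18.4 CPM in WT. Its groups were close but did not overlap, with a log2 ratio of -0.23. Isoform f was at 8.29, 12.8 and 13.4 CPM in pals-25(icb98), against 13.1, 11.2 and 11.4 CPM in WT. Mutant replicate 1 was the lowest of the 6, the other mutant libraries lay within or above the WT range, and the sign of the ratio (-0.05) depended on single libraries, being 0.14 without mutant replicate 1 and 0.03 without WT replicate 1.

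Isoforms g and h were low and erratic. Isoform g was at 1.05, 0.866 and 0.206 CPM in pals-25(icb98), against 0.610, 0.365 and 0.841 CPM in WT. Isoform h was at 2.20, 3.80 and 2.95 CPM in pals-25(icb98), against 2.95, 0.787 and 6.52 CPM in WT. The spread of h among WT libraries exceeded the whole range of the mutant, and its log2 ratio ran between -0.67 and 0.68 with single libraries left out. Isoform e was listed at no more than 0.003 counts in any library and at exactly 0 in 2 of them, and was thus not detectable. Counting a, b.1, c and d as lower and b.2 as higher, CPM did not overlap between groups in 5 of the 9 transcripts. Among the 16977 transcripts of the genes with several transcripts and at least 100 counts in every library, this held for 24.1%.

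Transcript b.2 had estimated counts above 0 only in the mutant. It had 49.5, 65.8 and 94.5 counts in pals-25(icb98), against 0, 0 and 0 in WT. With a floor of 3 counts over the WT group, its estimate was at least 68.7-fold higher. This bound covers counting error only, not the division of reads between b.1 and b.2. Within the b pair it took 6.40%, 7.95% and 11.9% of the counts in pals-25(icb98) replicates 1, 2 and 3. With both members summed, the pair stood at 18.01, 18.5 and 17.9 CPM in pals-25(icb98), against 20.5, 19.4 and 18.4 CPM in WT. The sums overlapped between the groups, at 18.2 ± 0.340 and 19.5 ± 1.04 CPM (SD, n = 3 each).

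A transcript at exactly 0 in all WT libraries and with at least the lowest b.2 count (49.5) in each pals-25(icb98) library was 1 of the 16977, b.2 itself, or 0.00589%. With values under 0.5 counts in all WT libraries in place of exact zeros there were 6, and 4 in the opposite direction, under 0.5 in the mutant. These limits were set on b.2 after its values were seen, so b.2 meets them by construction and these counts are no test of it. Estimates of 0 also alternated with well counted values within a genotype. Of 12102 transcripts that reached the lowest b.2 count in a pals-25(icb98) library, 393 (3.25%) were at 0 in another pals-25(icb98) library, and of 12098 that reached it in a WT library, 374 (3.09%) were at 0 in another WT library.

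As shares of the gene total, the isoforms shifted modestly. Isoform c took 44.5%, 36.1% and 35.4% in pals-25(icb98), against 42.5%, 39.1% and 42.1% in WT, and the groups overlapped. Isoform a took 17.1%, 15.4% and 16.3% in pals-25(icb98), against 16.7%, 22.4% and 17.7% in WT, and d took 6.07%, 7.56% and 9.21%, against 9.59%, 12.2% and 8.39%. Both overlapped. Isoform f had a mean difference of 2.92 percentage points, the largest by counts with all libraries, with 9.07%, 14.6% and 15.2% in pals-25(icb98), against 11.01%, 9.27% and 9.74% in WT, and it overlapped as well. The difference of f ran from 1.81 to 4.85 percentage points without single libraries, lowest without mutant replicate 3 and highest without mutant replicate 1. At least 1 of a, c and d differed more than f whichever of the 6 libraries was left out, and d and c did so in shares of TPM (-3.60 and -3.14, against 2.97 for f).

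The shares of the b transcripts separated the groups. Isoform b.1 took 18.4%, 19.4% and 17.9% in pals-25(icb98), against 17.3%, 16.1% and 15.7% in WT, and b.2 took 1.26%, 1.67% and 2.42% in pals-25(icb98) and none in WT. The pair together took 20.3 ± 0.672% in pals-25(icb98) and 16.4 ± 0.816% in WT (SD, n = 3 each). Thus 2 of the 9 transcripts had shares that did not overlap, both higher in the mutant, against 13.9% of the 16977 transcripts in either direction and 7.01% higher. The summed share of a, c and d was 67.7%, 59.1% and 61.0% in pals-25(icb98), against 68.7%, 73.6% and 68.3% in WT. The groups were separate, with mutant replicate 1 nearest to WT. Computed from TPM, that is per effective length, the summed share of a, c and d was 47.3 ± 4.61% in pals-25(icb98) and 56.0 ± 4.74% in WT, and the groups overlapped. The share of b.1 overlapped in this unit too, whereas that of the b pair was 28.0 ± 0.365% in pals-25(icb98) and 23.5 ± 1.48% in WT without overlap (SD, n = 3 each).

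**Figure D3:**
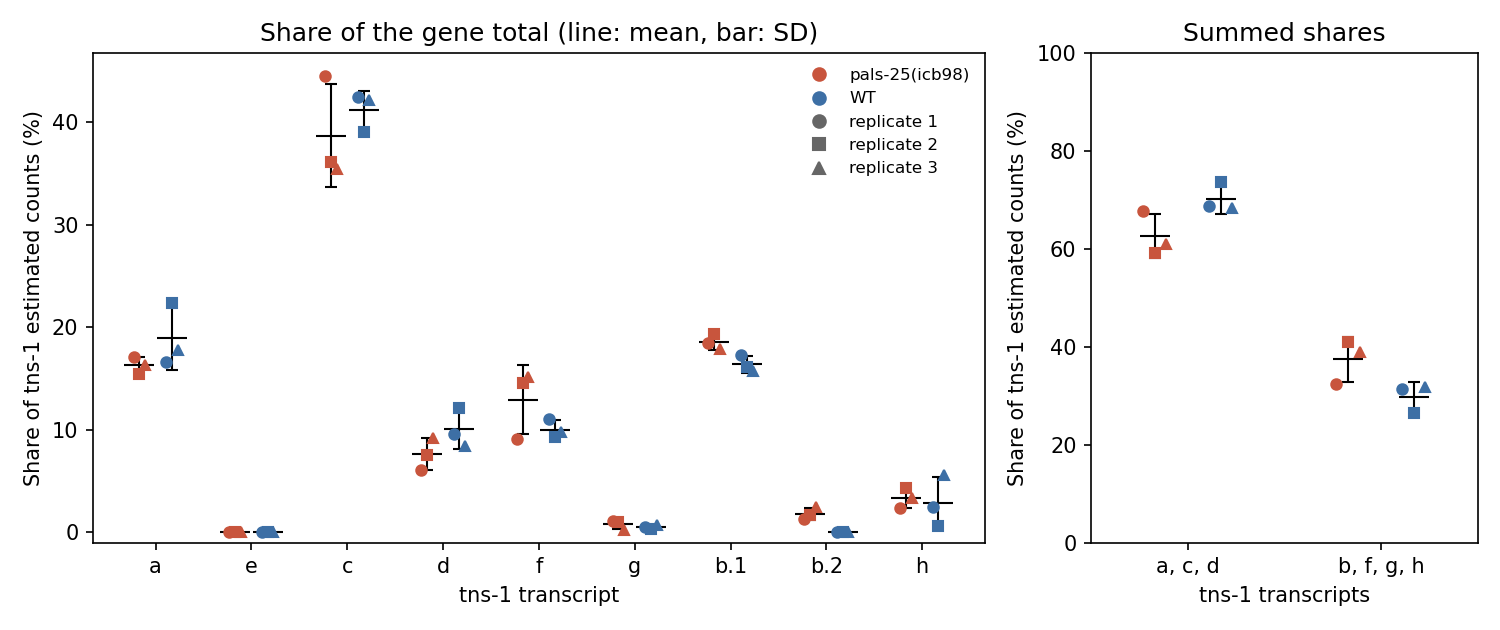
Share of tns-1 estimated counts taken by each transcript (left, percent) and by a, c and d against b, f, g and h summed (right, percent), pals-25(icb98) left of WT, with the mean and SD (n = 3). Single shares overlapped except for b.1 and b.2, and the summed shares were separate, with pals-25(icb98) replicate 1 nearest to WT.

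Levels can be ranked among the isoforms only per length, as TPM (counts per effective length, scaled to a common total). In pals-25(icb98) the order was c at 9.62 ± 1.34 TPM, b.1 at 8.44 ± 0.408, f at 5.30 ± 1.34, d at 3.05 ± 0.597, a at 2.98 ± 0.162, h at 2.51 ± 0.712, b.2 at 0.849 ± 0.271 and g at 0.398 ± 0.248 TPM (SD, n = 3). Across libraries the values of c and b.1 overlapped, although c was above b.1 within each mutant library. Those of d, a and h overlapped as well. In WT, c led at 13.7 ± 0.339 TPM, above b.1 at 10.01 ± 0.574, then f at 5.52 ± 0.451, d at 5.44 ± 1.19, a at 4.66 ± 0.870, h at 2.87 ± 2.41 and g at 0.344 ± 0.132 TPM (SD, n = 3). Isoform c was above b.1 in every WT library, whereas f, d and a overlapped, and the wide range of h (0.676 to 5.45 TPM) reached into all 3 of these. The short isoform b.1 was therefore more abundant than the longest, a, in both genotypes, with the lowest b.1 value of 8.03 TPM above the highest value of a, 5.66 TPM. The gene total in this unit was 33.1 ± 1.16 TPM in pals-25(icb98) and 42.6 ± 0.420 TPM in WT (SD, n = 3 each), a log2 ratio of -0.36.

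Calls among the neighbors of tns-1 were too few to set apart from the shares of all genes. Of the 10 nearest measured genes, 5 on each side, 1 was higher and 0 were lower in pals-25(icb98) by edgeR's quasi-likelihood test at an adjusted p under 0.05, against 9.8% higher and 10.7% lower of all 16166 genes. At an unadjusted p under 0.05 there were 3 higher and 1 lower (ubl-5, -0.29), against 16.2% and 19.8% of all genes. DESeq2 called 3 higher and 0 lower, against 12.4% and 13.3%. The median log2 difference of the 10 neighbors was 0.18, and that of all genes 0.01. The gene called was xrep-4, at 46.9, 46.3 and 45.8 CPM in pals-25(icb98), against 38.3, 35.3 and 38.9 CPM in WT (log2 difference 0.30, SE 0.06, edgeR adjusted p = 0.0164). Leaving out any of the 3 mutant libraries ended this call (0.0741 at most). M01E11.1 overlaps the 3′ end of tns-1 by 65 bases on the opposite strand, and since the strand setting of the counting is not given, reads there could belong to either gene. It was low, at 11.1 ± 0.991 CPM in pals-25(icb98) and 10.4 ± 0.616 CPM in WT (SD, n = 3 each, edgeR adjusted p = 0.610).

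Genes of integrin attachment were lower in pals-25(icb98) in a minority of cases. Of 40 such genes besides tns-1, all tested, 9 fell and 2 rose (22.5% and 5.0%), against 10.7% and 9.8% of all genes, with a median log2 difference of -0.14. The estimate was below 0 in 33 of them. Over all 16166 genes the median was 0.01, and the share below 0 was not counted. With single libraries left out, the falls numbered between 2 and 16 and the rises between 1 and 5, both highest without WT replicate 2. The list was made with earlier results of these data known and was not tested as a set.

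Both integrin alpha subunits and talin were among the 9 called lower. The integrin alpha subunit pat-2 was at 164, 165 and 159 CPM in pals-25(icb98), against 196, 205 and 202 CPM in WT (log2 difference -0.31, SE 0.04, edgeR adjusted p = 0.00594). The other alpha subunit, ina-1, had a log2 difference of -0.31 (SE 0.09, edgeR adjusted p = 0.0485). Its call was lost in every fit without 1 library except WT replicate 2 (edgeR adjusted p up to 0.174), and with other scalings or filters (0.0514 to 0.0760). The beta subunit pat-3, shared by both alpha subunits, measured -0.21 and was not called (edgeR adjusted p = 0.0548). Of the 5 proteins listed at the integrin tail, only talin, tln-1, fell. It was at 394, 374 and 367 CPM in pals-25(icb98), against 495, 461 and 493 CPM in WT (-0.35, SE 0.05, edgeR adjusted p = 0.00726). For the kindlin unc-112, the integrin-linked kinase homolog pat-4, the PINCH homolog unc-97 and the parvin pat-6, the log2 differences were -0.08, -0.04, -0.16 and -0.12 (edgeR adjusted p of 0.205, 0.682, 0.0723 and 0.145). Whether tln-1 and these partners differ from each other was not tested.

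On the matrix side, 4 of 9 ligand genes fell and 0 rose. They were unc-52, which encodes perlecan (-0.42, SE 0.09, edgeR adjusted p = 0.0294), the nidogen gene nid-1 (-0.22, edgeR adjusted p = 0.0295) and the laminin genes lam-1 (-0.25) and lam-2 (-0.26). All 4 calls were lost in every fit without a mutant library and without WT replicate 3, and those of nid-1 and lam-2 also without WT replicate 1 (edgeR adjusted p at most 0.115 for unc-52, 0.120 for nid-1, 0.135 for lam-1 and 0.148 for lam-2). At an unadjusted p under 0.05 there were 8 lower and 0 higher, against 19.8% and 16.2% of all genes, and by DESeq2 5 and 0, against 13.3% and 12.4%. The laminin gene lam-3 was not called by edgeR and turned on WT replicate 2, at 60.1 CPM against 17.01 and 20.9 CPM in the other WT libraries. Its log2 difference was -1.52 with all libraries (edgeR adjusted p = 0.0854) and -0.73 without WT replicate 2 (edgeR adjusted p = 0.00421), and DESeq2 called it lower with all libraries (adjusted p = 0.0134). Among 13 genes of actin attachment, the PDZ and LIM domain gene alp-1 fell (-0.27, edgeR adjusted p = 0.0479) and the filamin fln-1 rose (0.18, edgeR adjusted p = 0.0436). Both calls were lost in 5 of the 6 fits without 1 library (edgeR adjusted p at most 0.150 and 0.117). Vinculin, deb-1, was not called (-0.25, edgeR adjusted p = 0.0875). Of 4 M line genes the phosphatase gene scpl-1 rose, at 95.3, 90.3 and 93.7 CPM in pals-25(icb98), against 71.9, 74.4 and 69.9 CPM in WT (0.37, SE 0.05, edgeR adjusted p = 0.00535). Of 6 signaling genes git-1 fell (-0.43, edgeR adjusted p = 0.0330), a call that also held in only 1 of these 6 fits, the one without WT replicate 2 (at most 0.125 in the others). The calls of tln-1, pat-2 and scpl-1 held in all 6 fits without 1 library.

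**Figure D4:**
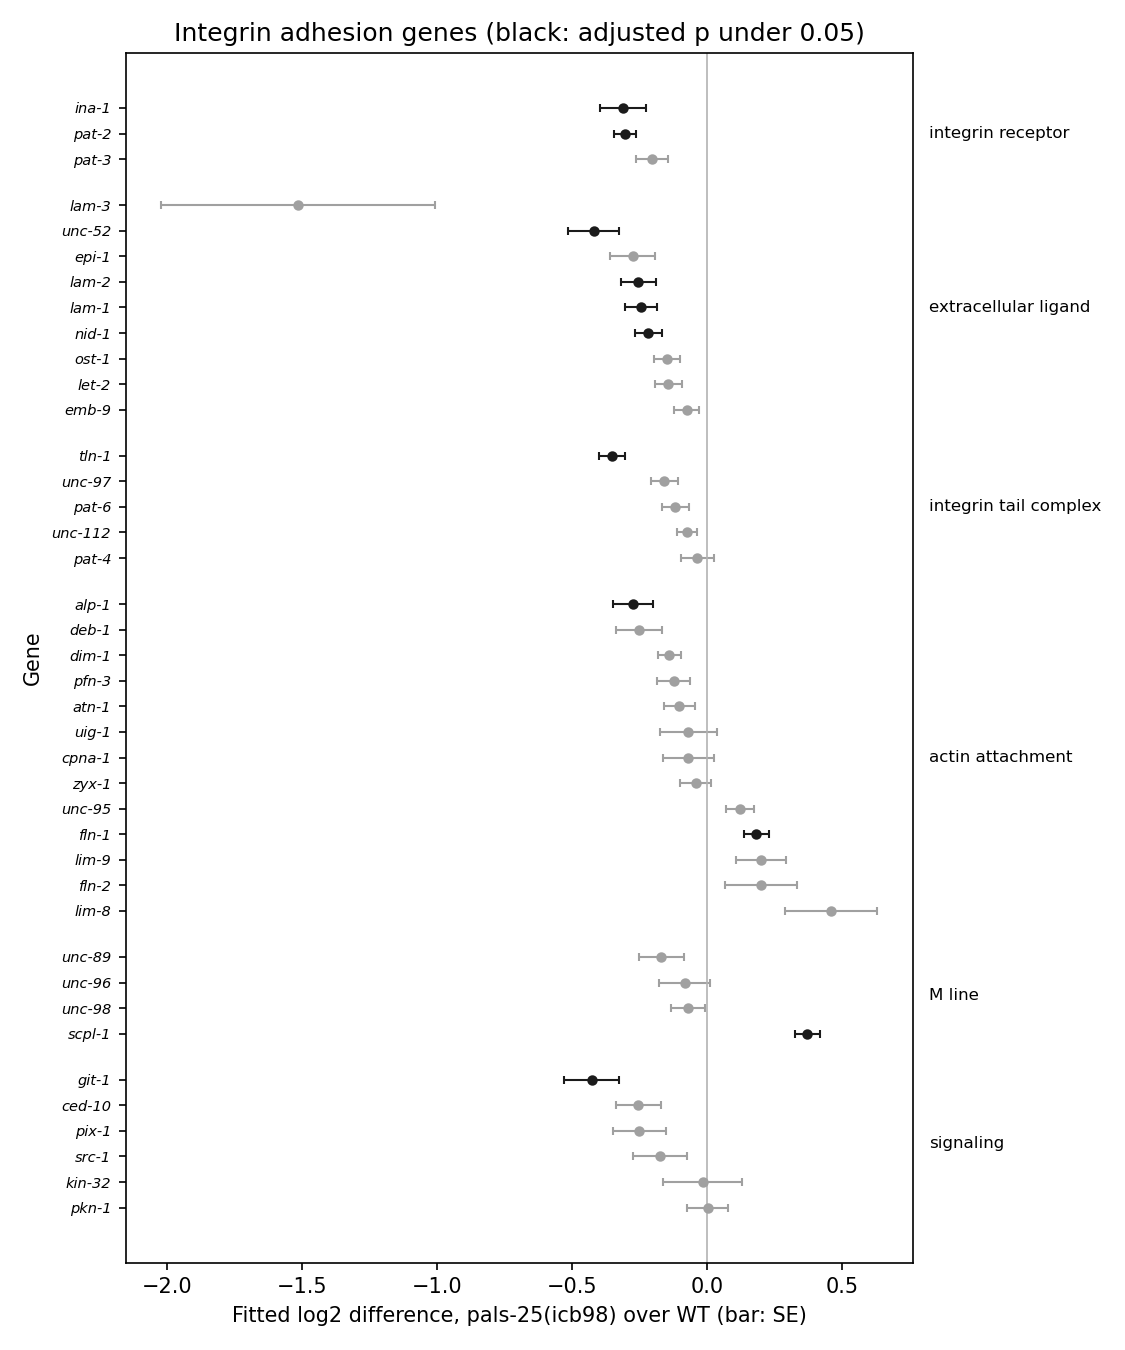
Fitted log2 difference (pals-25(icb98) over WT, bar: SE) of 40 integrin attachment genes grouped by role, with genes at an edgeR adjusted p under 0.05 in black. Of these genes 9 fell and 2 rose, and lam-3, with the lowest estimate, had the widest error, was not called and stood at -0.73 without WT replicate 2.

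In the reproductive system, a list of 18 genes of spermathecal contractility and junctions had 2 falls and 1 rise (11.1% and 5.56%, beside the 10.7% and 9.8% of all genes) and a median log2 difference of -0.05. The cadherin gene hmr-1 (-0.49, SE 0.07, edgeR adjusted p = 0.00638) and the Discs large homolog dlg-1 (-0.45, SE 0.06, edgeR adjusted p = 0.00609) fell, both of which also serve epithelia outside the spermatheca. The nonmuscle myosin nmy-2 rose (0.28, edgeR adjusted p = 0.0447), a call lost in 5 of the 6 fits without 1 library (edgeR adjusted p up to 0.150). The falls numbered 6 without WT replicate 2.

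In whole animals, fewer cells of a type and less RNA per cell cannot be told apart. Stage within L4 is not given per library, so it cannot be told apart from genotype either. Markers are therefore given beside these levels, as the summed CPM of each list. The 10 body wall muscle markers summed to 20910 to 22010 CPM in pals-25(icb98) and 20720 to 21490 CPM in WT, with unc-54, the main myosin heavy chain, higher (0.19, edgeR adjusted p = 0.0173) and the actin act-4 lower (-0.17, edgeR adjusted p = 0.0222). Both calls were lost in some fits without 1 library, 3 and 5 of 6. The 5 measured markers of spermatheca and gonadal sheath summed to 304 to 323 CPM in pals-25(icb98) and 344 to 371 CPM in WT. Of these only the troponin I gene tni-1 fell, at 100.5, 107 and 105 CPM in pals-25(icb98), against 146, 161 and 148 CPM in WT (-0.55, SE 0.06, edgeR adjusted p = 0.00251). The separation of the sums rests on tni-1. The other 4 were not called, and the highest of them, tnt-3, overlapped, at 171, 152 and 169 CPM in pals-25(icb98), against 154, 160 and 149 CPM in WT. The 8 oocyte markers summed to 771 to 925 CPM in pals-25(icb98) and 270 to 565 CPM in WT, lowest in WT replicate 2, with egg-2 (0.90) and oma-2 (0.93) called higher by edgeR with all libraries and, of the 6 fits without 1 library, only without WT replicate 2. DESeq2 called all 8 higher. The 8 sperm markers ran from 477 to 543 CPM in pals-25(icb98) and from 186 to 458 CPM in WT. Their lowest sum was also in WT replicate 2. Of these, 0 were called by edgeR or DESeq2, and 0 had an unadjusted p under 0.05.

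The 8 epidermal markers summed to 1030 to 1079 CPM in pals-25(icb98) and 849 to 1625 CPM in WT, but 7 of the 8 had estimates below 0 and their median log2 difference was -1.23. Of these the adult cuticle collagen col-19 was higher (3.47, SE 0.51, edgeR adjusted p = 0.00923), and the collagen rol-6 (-0.87, SE 0.14, edgeR adjusted p = 0.0108) and the epidermal transcription factor lin-26 (-0.31, SE 0.05, edgeR adjusted p = 0.00934) were lower. Of the sums, col-19 alone held 584, 477 and 635 CPM in pals-25(icb98), against 62.6, 18.97 and 71.3 CPM in WT. DESeq2 called 6 lower, and the highest sum was that of WT replicate 2. In that library dpy-7, dpy-10, dpy-2 and dpy-3 stood at 303, 313, 271 and 257 CPM, against 63.7 to 114 CPM in the other WT libraries. The median of the list therefore rests partly on WT replicate 2. The call of rol-6 was lost without pals-25(icb98) replicate 1 (edgeR adjusted p = 0.0543). The 5 measured intestinal markers summed to 2512 to 2672 CPM in pals-25(icb98) and 2040 to 2553 CPM in WT, with the intermediate filament ifb-2 called higher (0.60, edgeR adjusted p = 0.00488). The 5 pharyngeal muscle markers (934 to 1019 CPM in pals-25(icb98) and 889 to 1327 CPM in WT) and the 6 neuronal markers (316 to 341 and 288 to 352 CPM) had 0 calls by edgeR and by DESeq2, with 1 neuronal and 0 pharyngeal markers at an unadjusted p under 0.05. No listed marker was under 1 CPM in every library. The part of these differences in the level of tns-1 was not tested.

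Genes whose pattern lay closest to that of the tns-1 total were found by the Euclidean distance of centred log2 CPM over the 6 libraries. The closest was egl-30, a G protein alpha subunit, at a distance of 0.06, with 176, 172 and 176 CPM in pals-25(icb98), against 227, 236 and 223 CPM in WT. It was followed by the potassium channel gene slo-1, M04C3.5, nmgp-1 and the early endosome gene eea-1, at distances of 0.09 each. For isoform f, whose share of counts differed most with all libraries, the nearest shares belonged to a.1 and b of atg-4.1, a protease of autophagy, which had equal estimates, at a distance of 2.96 percentage points. Then came emb-4 transcript d, nlp-40 transcript a.2 and F55A11.6 transcript b, at 3.17, 3.64 and 4.14 percentage points. The SD of the f share among mutant libraries was 3.35 percentage points.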

How the data were processed

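Reads were pseudoaligned by the authors to WormBase WS235 transcripts with kallisto. The deposited estimated counts, with the length and effective length of each of 35862 transcripts, are 1 table per library and are not normalized. The sources used here do not name the version or the strand setting. The sleuth test of the authors was not run. TPM was computed from these values. Members and gene lists were chosen with earlier results of these data known.

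Transcripts were summed to genes by sequence name, of which 99.2% matched the Ensembl annotation of WBcel235. Gene sums were rounded and tested with edgeR 4.0.16 (R 4.3.3, quasi-likelihood F-test, robust, TMM, filterByExpr at 10 counts, group as only term, Benjamini-Hochberg over 16166 genes). The test was tested on simulated data. Called means an adjusted p under 0.05. CPM uses TMM-scaled totals. Shares of all transcripts were taken in genes with at least 100 counts in every library. Replicates are named as biological in the sample titles, and groups come from these titles.

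Genes were named by rule: all tns-1 transcripts, up to 4 called members of smallest adjusted p per list and direction, integrins and tail proteins, called neighbors, and the 5 closest genes and transcripts. lam-1, lam-2, lam-3, alp-1, git-1, deb-1, ubl-5, M01E11.1, tnt-3, dpy-2, dpy-3, dpy-7 and dpy-10 were added after their values were seen. In the marker lists, 2 of the listed names did not match a measured gene. Alternatives were DESeq2 1.42.0, other scalings and filters, length-scaled counts, a replicate block, TPM and leaving out each library.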

Additional observations from a re-analysis of the deposited data

How the results depend on the processing

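The log2 ratio of the tns-1 total, -0.41, was -0.36 in TPM and between -0.43 and -0.40 with single libraries left out. The ratios of a, b.1, c and d were below 0 under each scaling, in TPM and without any single library. Those of f (-0.17 to 0.14), g (-0.18 to 0.66) and h (-0.67 to 0.68) changed sign when single libraries were left out, and so did the share difference of h (-0.67 to 1.79 percentage points). The mean share of b.2 in pals-25(icb98) was 1.79% of counts and 2.56% of TPM.

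Integrin attachment genes called lower were 2 to 16 and called higher 1 to 5 without single libraries, 4 and 1 with length-scaled counts, and 3 and 1 with the replicate block. The 3 called lower with the block were pat-2, ina-1 and tln-1, so the calls of the matrix genes, alp-1 and git-1 were lost there. The contractility list had 0 to 2 higher and 2 to 6 lower without single libraries, 0 higher with length-scaled counts or the block, and 2 higher with DESeq2. Neighbors of tns-1 called higher were 0 to 4 without single libraries, 2 with the block and 3 with DESeq2. The estimate of pat-4 ran between -0.077 and 0.016, above 0 only without WT replicate 2. These fits hold fewer samples or other counts, and the cause of each change was not tested. Genes called over all 16166 were 1184 higher and 1010 lower with the block, against 1584 and 1729 without it, and ran from 682 to 3165 higher and from 330 to 2972 lower without single libraries, most without WT replicate 2. Deviations of same-numbered libraries correlated at 0.08, 0.25 and 0.13, and those of differently numbered libraries at -0.24 to 0.15. Replicates 1 and 2 of pals-25(icb98) correlated best with the same WT number, and replicate 3 with WT replicate 1 (0.15). These values do not settle whether the numbers mark pairs. The main fit had no pairs, after the two-sample comparison of the study, and the block is given as the alternative. The values of g, h and b.2 rest on 265 or fewer counts a library.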
